A study of Mus musculus with 12 samples.

Results

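Of the 44345 genes in the deposited table, 6 are described here: Gpr151, Slc6a4, Ecel1, Cckbr, Fgf3 and Lipn. They were chosen by their values in vehicle mice, which were very low in dorsal root ganglia without injury and above 10 units after a crush of the sciatic nerve. All 6 were found in the table by name, once each. The choice rests on the vehicle libraries, so the vehicle crush contrast is given for these genes as a description without a test. Libraries of mice given indole-3-propionic acid (IPA), which gut bacteria produce from tryptophan, played no part in it.

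RNA was measured in the L4 to L6 dorsal root ganglia (DRG), where the somata of sensory neurons lie, many of them with axons in the sciatic nerve. The animals were C57BL/6 mice aged 6 to 8 weeks, and each library was made from DRG pooled from 2 mice. The 4 groups, with 3 libraries each, were IPA with crush (IPA gavage at 20 mg/kg daily for 10 days, then 3 more days after the crush), phosphate-buffered saline (PBS) with crush, IPA without crush and PBS without crush. PBS was gavaged daily for 10 days as the vehicle, and the labels leave unclear whether it went on after the crush. Crushed mice were sampled 3 days after injury. No mutant or transgene is named in the labels, which give neither sex nor batch. With pooled animals, variation between single mice cannot be seen, and because whole ganglia were used, more cells of a type and more RNA per cell cannot be told apart.

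After a peripheral nerve is cut or crushed, sensory neurons switch from conducting signals to regrowing an axon, and genes that are silent in the intact ganglion are transcribed. Atf3, a transcription factor, and Sprr1a, a small proline-rich protein, are widely used markers of that state in rodent DRG. The genes described here come from unrelated families. Gpr151 and Cckbr encode G protein-coupled receptors, Slc6a4 a neurotransmitter transporter, Ecel1 a membrane protease, Fgf3 a secreted growth factor and Lipn a lipase.

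Depth was 40938034 to 62501969 recovered reads a library. Values are in the deposited CPM-like unit, which scales with the reads of a library and is not divided by gene length, and a single read adds 0.013 to 0.0199 to it. Each of the 6 genes had at least 1 read in every library. Atf3 followed the injury labels, at 471.4 ± 9.44 in crushed IPA and 11.0 ± 0.190 in uninjured IPA libraries, and at 517.6 ± 7.40 in crushed PBS and 11.2 ± 1.03 in uninjured PBS libraries (SD, n = 3 each). DRG neuron markers summed to 13727.0 to 15019.0 in crushed IPA, 12907.4 to 14076.2 in crushed PBS, 14157.0 to 14440.3 in uninjured IPA and 13081.1 to 14282.3 in uninjured PBS libraries, with none of the 13 at 0. Crushed PBS replicate 1 lay farthest from its group mates, with a mean absolute log2 difference of 0.187 against 0.0802 to 0.148 in the other libraries.

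Gpr151, an orphan receptor related in sequence to the galanin receptors and best known from the habenula, was the highest of the 6 after crush. Its values were 97.8, 98.9 and 112.6 in crushed IPA libraries against 1.34, 1.03 and 1.18 in uninjured IPA libraries. In PBS mice they were 114.3, 115.5 and 115.6 after crush and 0.886, 1.16 and 1.44 without it. Every crushed library lay far above every uninjured one, and the crushed PBS libraries lay within 2 units of each other. Gpr151 (ENSMUSG00000042816) is a gene of 1 exon at 42577881 to 42579652 of mm10 chromosome 18, on the minus strand.

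Cckbr encodes the receptor for cholecystokinin and gastrin known as the CCK2 receptor. Crushed IPA libraries read 31.4, 31.0 and 31.1, against 0.536, 0.423 and 0.171 in uninjured IPA libraries. Crushed PBS libraries read 28.4, 32.3 and 34.4, against 0.173, 0.531 and 0.364 in uninjured PBS libraries. The spread among crushed IPA libraries was small (SD 0.213), and the uninjured values rested on 12 to 34 reads in IPA and 9 to 28 reads in PBS libraries. The gene (ENSMUSG00000030898) spans 105425731 to 105470898 of chromosome 7 on the plus strand, with 5 exons.

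Slc6a4, the plasma membrane serotonin transporter that clears serotonin from the extracellular space, had values of 28.9, 27.4 and 31.5 in crushed IPA libraries and 0.425, 0.302 and 0.185 in uninjured IPA libraries. The PBS libraries held 29.3, 33.5 and 30.4 after crush and 0.173, 0.379 and 0.232 without. The crushed values of both treatments overlapped, and none came near the uninjured values, which were 13 to 27 reads in IPA and 9 to 20 reads in PBS libraries. Slc6a4 (ENSMUSG00000020838) has 15 exons and lies at 76998603 to 77032340 of chromosome 11, on the plus strand.

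Ecel1, endothelin-converting enzyme-like 1, is a zinc metalloprotease also known as damage-induced neuronal endopeptidase. It stood at 78.3, 76.3 and 71.6 in crushed IPA libraries, against 2.05, 1.75 and 1.01 in uninjured IPA libraries. The crushed PBS libraries stood at 62.2, 82.2 and 84.5, against 1.14, 1.44 and 1.70 in uninjured PBS libraries. Crushed PBS replicate 1 was the low library, and the crushed PBS spread for Ecel1 (coefficient of variation 16.1%) was the widest of the 6 genes after crush. Without crush Ecel1 had the highest mean of the 6 genes under both treatments, before division by length. The gene (ENSMUSG00000026247) spans 87147655 to 87156521 of chromosome 1 on the minus strand, with 18 exons.

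Fgf3 encodes a secreted fibroblast growth factor needed in mouse for development of the inner ear. Crushed IPA libraries gave 20.1, 19.0 and 18.0, against 0.299, 0.196 and 0.299 in uninjured IPA libraries. Crushed PBS libraries gave 18.5, 21.3 and 22.3, against 0.173, 0.152 and 0.381 in uninjured PBS libraries. Uninjured libraries held 8 to 23 reads of the gene, crushed libraries 931 to 1598. Fgf3 (ENSMUSG00000031074) has 4 exons and lies at 144838083 to 144844436 of chromosome 7, on the plus strand.

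Lipn, a member of the acid lipase family known from human epidermis, was the lowest of the 6 in every group by mean, before division by length. It read 13.8, 13.7 and 13.6 in crushed IPA libraries, against 0.126, 0.0755 and 0.0285 in uninjured IPA libraries, and 16.4, 13.6 and 15.3 in crushed PBS libraries, against 0.0193, 0.0759 and 0.0165 in uninjured PBS libraries. The uninjured values stood for 8, 5 and 2 reads in IPA and for 1, 4 and 1 reads in PBS libraries. Crushed libraries held 747 to 1093 reads, so the level before injury, not that after it, limits the precision of the Lipn fold. The gene (ENSMUSG00000024770) spans 34067358 to 34084918 of chromosome 19 on the plus strand, with 10 exons.

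**Figure D1:**
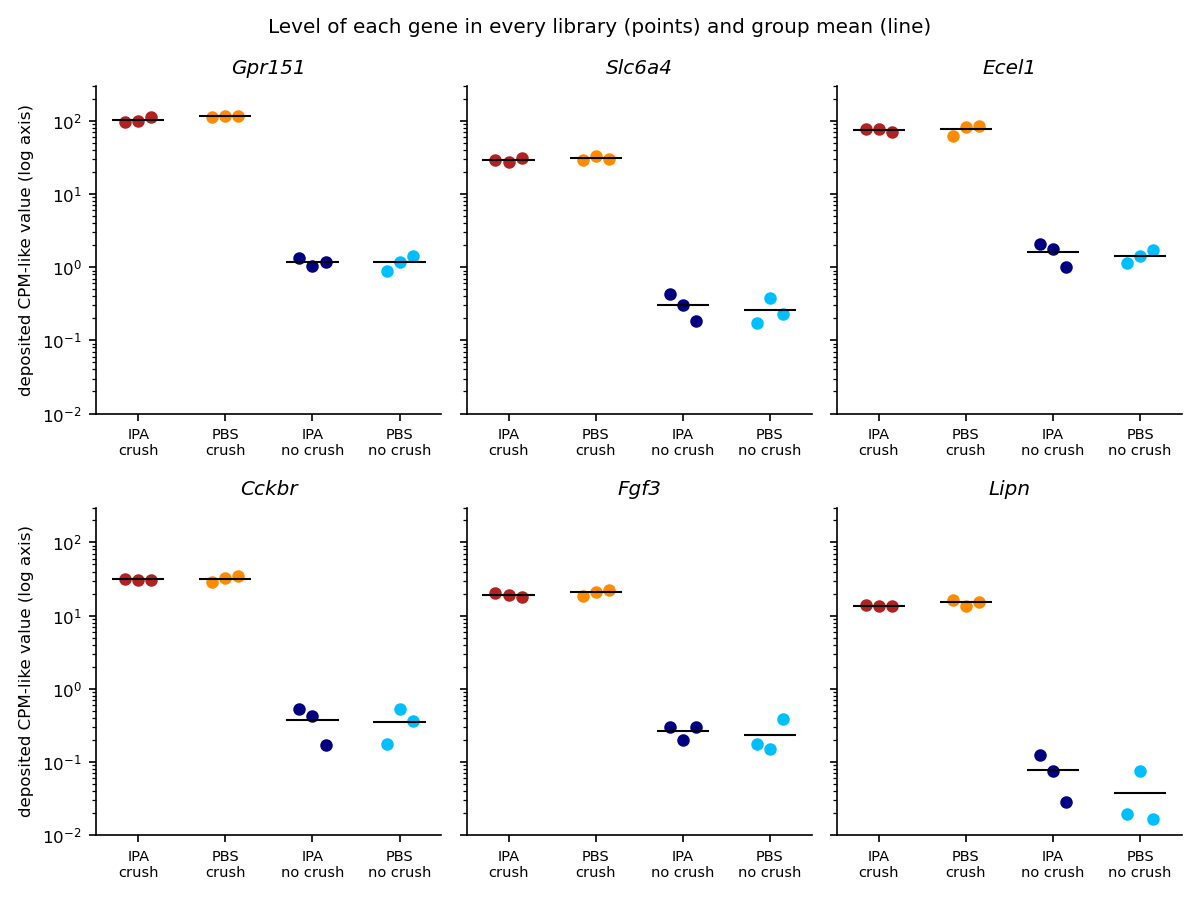
Deposited CPM-like value of each gene on a log axis; each point is 1 library (3 per group) and each line a group mean, with both crushed groups left of both uninjured groups. In every panel the crushed libraries lie above all uninjured libraries, from 35.0 times (Ecel1) to 107.7 times (Lipn) for the lowest crushed over the highest uninjured IPA library.

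In IPA mice, whose libraries had no part in the choice, each of the 6 genes rose after crush. On the scale of log2(value + 0.5), fitted with limma over 15603 genes that reached 0.5 in at least 3 libraries, the largest increase was that of Gpr151, 5.95 ± 0.11 (SE; adjusted p = 8.94e-14). Slc6a4 rose by 5.22 ± 0.12, Ecel1 by 5.21 ± 0.17 and Cckbr by 5.20 ± 0.16, which are closer to each other than their errors. Fgf3 rose by 4.68 ± 0.12 and Lipn by 4.63 ± 0.10. The limma adjusted p of these 5 genes lay between 5.20e-13 and 2.60e-11. They took ranks 3, 5, 6, 7, 9 and 10 of the 15603 genes by log2 change.

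Of all genes tested, 21.2% rose after crush in IPA mice and 22.5% fell, and in 27.2% all crushed IPA libraries lay above all uninjured ones. Against these shares, 6 of 6 genes rose and had no overlap, but only Gpr151 and Ecel1 would have passed the filter on low values from uninjured libraries alone. The other 4 genes (Slc6a4, Cckbr, Fgf3 and Lipn) were tested only because crushed libraries reached 0.5, so the count of 6 carries no weight of its own. The fit with only the 6 IPA libraries kept the same filtered genes, so the same limit holds for it. It gave the same log2 changes, with limma adjusted p of 1.05e-10 to 1.18e-08.

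The order of the 6 genes by fold depended on the scale. The added 0.5 is larger than the uninjured level of Slc6a4, Fgf3 and Lipn in every library, so it understates their change most. From pooled reads, the level in crushed IPA libraries was 182.9 times that in uninjured IPA libraries for Lipn (95% exact interval 110.7 to 327.3), 96.9 times for Slc6a4 (75.1 to 127.1), 86.6 times for Gpr151 (76.2 to 98.9), 84.3 times for Cckbr (67.0 to 107.4), 72.3 times for Fgf3 (55.2 to 96.8) and 47.8 times for Ecel1 (42.8 to 53.6). These intervals cover counting error only. By reads Lipn had the largest ratio and Ecel1 the smallest, whereas on the log2(value + 0.5) scale Lipn had the smallest change. The edgeR model on the recovered reads put Lipn at a log2 change of 7.49, Slc6a4 at 6.61, Gpr151 at 6.46, Cckbr at 6.40, Fgf3 at 6.17 and Ecel1 at 5.58.

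In PBS mice the corresponding log2(value + 0.5) changes were 6.13 for Gpr151, 5.38 for Slc6a4, 5.31 for Ecel1, 5.25 for Cckbr, 4.86 for Fgf3 and 4.86 for Lipn. These values chose the genes, and nothing is read from them against the 23.6% of genes that rose and the 24.4% that fell after crush in PBS mice. The pooled-read ratio for Lipn was 414.6 (190.2 to 1130.8), from 2668 reads in crushed and 6 in uninjured PBS libraries. That of Ecel1, 53.7, was again the smallest of the 6.

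**Figure D2:**
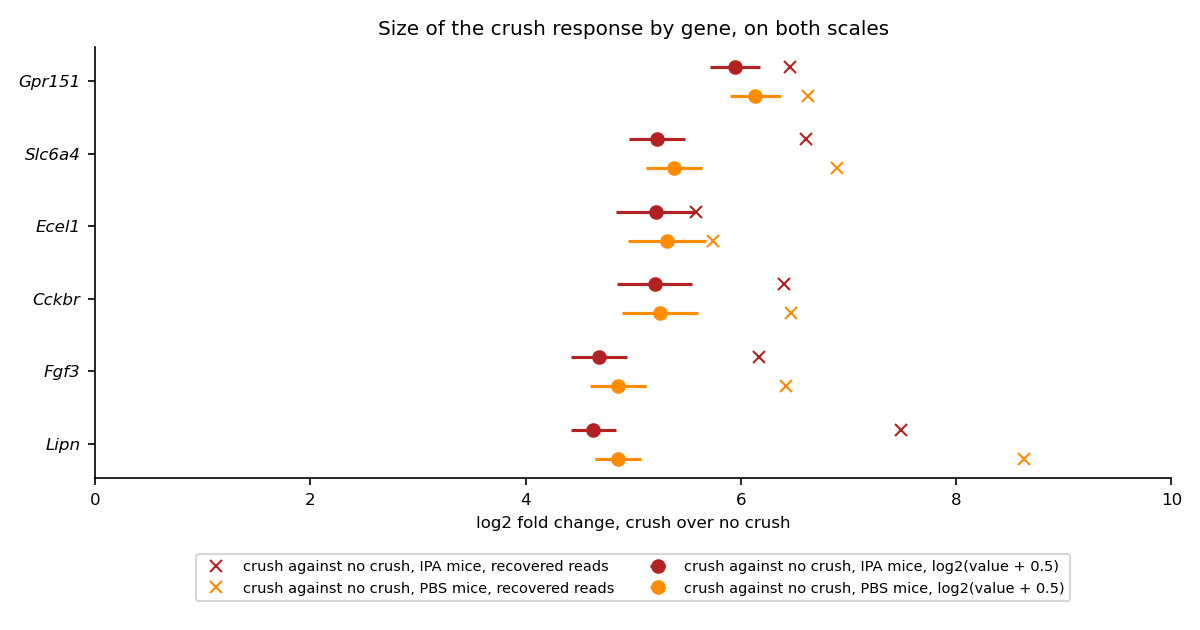
Log2 fold change of crush over no crush for each gene, in IPA mice (red, upper) and PBS mice (orange, lower). Circles with 95% confidence intervals are the limma fit of log2(value + 0.5), and crosses the edgeR fit of recovered reads, which for Lipn lies at 7.49 in IPA mice against 4.63 on the limma scale.

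Divided by the length of the longest annotated transcript, so that levels can be set between genes, the order in crushed IPA libraries was Gpr151 (58.2 ± 4.63 units per kb), Ecel1 (24.9), Cckbr (12.1), Slc6a4 (10.5), Lipn (9.13) and Fgf3 (8.29). No 2 neighbours in that order overlapped in crushed IPA libraries. In crushed PBS libraries the order was the same, but Cckbr (12.3) overlapped Slc6a4 (11.1), which overlapped Lipn (10.0), which overlapped Fgf3. Gpr151 also led without crush, at 0.667 units per kb in IPA and 0.655 in PBS libraries. Ecel1 was at 0.529 in IPA and 0.471 in PBS libraries and overlapped Gpr151 in both groups. Lipn came last, at 0.0510 in uninjured IPA and 0.0248 in uninjured PBS libraries. Summed over the 6 genes, crushed libraries held 266.4 to 278.4 units in IPA and 269.2 to 302.5 in PBS mice, and uninjured libraries 2.88 to 4.77 in IPA and 2.56 to 4.14 in PBS mice.

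Sequence upstream of the RefSeq start of transcription was available from RefSeq (build GRCm38.p6) for 5 of the 6 genes, all except Gpr151. Windows of 250 bases before the start were searched on both strands for AP-1 (TGANTCA), the cyclic AMP response element (TGACGTCA) and the TGACG that it contains, a C/EBP-ATF element (TGATGNAA), the CCAAT box and the TATA box (TATAAA), since AP-1 and ATF factors are known in the injury response. The windows below are shown because they hold a match, in capitals, or, for Fgf3, for contrast. The Fgf3 window ends before the RefSeq start but lies inside the gene body that GENCODE annotates, which begins further upstream.
Slc6a4, chr11:76998347-76998596, plus strand: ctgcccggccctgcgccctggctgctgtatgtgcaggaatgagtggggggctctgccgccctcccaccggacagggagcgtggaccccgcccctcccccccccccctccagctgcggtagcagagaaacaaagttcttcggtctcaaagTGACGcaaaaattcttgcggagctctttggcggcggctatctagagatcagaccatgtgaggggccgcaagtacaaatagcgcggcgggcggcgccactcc
Lipn, chr19:34067108-34067357, plus strand: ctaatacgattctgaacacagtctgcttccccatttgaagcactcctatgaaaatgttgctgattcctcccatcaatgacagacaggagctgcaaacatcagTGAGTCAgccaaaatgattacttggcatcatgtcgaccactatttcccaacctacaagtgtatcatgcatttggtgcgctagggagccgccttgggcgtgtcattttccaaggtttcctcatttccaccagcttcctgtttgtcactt
Cckbr, chr7:105425481-105425730, plus strand: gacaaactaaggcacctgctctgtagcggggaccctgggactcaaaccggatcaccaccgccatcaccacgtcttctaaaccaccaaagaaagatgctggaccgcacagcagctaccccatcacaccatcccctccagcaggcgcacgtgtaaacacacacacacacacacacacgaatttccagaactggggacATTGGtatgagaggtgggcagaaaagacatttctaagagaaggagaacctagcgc
Fgf3, chr7:144838362-144838594, plus strand, up to an annotated exon: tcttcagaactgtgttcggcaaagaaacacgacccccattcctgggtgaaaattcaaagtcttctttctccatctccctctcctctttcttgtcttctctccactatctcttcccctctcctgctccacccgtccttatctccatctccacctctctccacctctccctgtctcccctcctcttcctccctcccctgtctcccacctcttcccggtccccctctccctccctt
Lipn held an AP-1 match whose first base lies 148 bases before the start, and 6.75% of all 32851 windows hold one. Slc6a4 held TGACG 101 bases before the start, a match found in 17.8% of windows, without the full element, which 1.55% hold. Cckbr and Ecel1 held a CCAAT box, as do 33.8% of windows, in Ecel1 within annotated exon sequence that is not printed. None of the 5 windows held the C/EBP-ATF letters (3.45% of windows) or TATAAA (12.4%). The Fgf3 window held none of the motifs and was 79.8% pyrimidine. Each match describes these letters only.

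Among the genes around each of the 6 that passed the filter, none changed as much as its neighbour among the 6. Within 250 kb of a gene body the table listed 71 other genes, of which 61 had a read and 32 were tested. Of those 32, limma called 10 higher and 3 lower after crush in IPA mice, where 21.2% of all genes were called higher and 22.5% lower. In PBS mice it called 9 higher and 3 lower, where 23.6% of all genes were called higher and 24.4% lower. Tmigd1, called higher in IPA mice, passed the filter only with crushed libraries (means of 0.356 in uninjured IPA and 0.456 in uninjured PBS libraries). Only 2 of the 71 genes overlap one of the 6, an antisense transcript (Gm12343) in Slc6a4 and a miRNA gene (Gm23334) in Lipn, and both were listed with 0 reads in every library.

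Beside Cckbr, Prkcdbp, which encodes a caveolae protein, rose by 1.49 ± 0.12 on the log2 scale (limma adjusted p = 3.53e-07) across a gap of 9.19 kb, and Fam160a2 by 0.62 ± 0.05. Lipk, a lipase gene 19.52 kb from Lipn, averaged 4.26 ± 0.0734 in crushed IPA and 1.68 ± 0.399 in uninjured IPA libraries, an increase of 1.14 ± 0.12 (limma adjusted p = 2.83e-06). Near Gpr151, Pou4f3, a sensory neuron transcription factor, fell by 0.74 ± 0.07 and Ppp2r2b, a phosphatase subunit, rose by 0.33 ± 0.04. Next to Ecel1, Eif4e2, a cap-binding protein, rose by 0.39 ± 0.04, and next to Slc6a4, Blmh, a cysteine protease, rose by 0.26 ± 0.05. Fgf4, the growth factor gene 2.93 kb from Fgf3, was at 1.94 in crushed IPA and 1.99 in uninjured IPA libraries (limma adjusted p = 0.817). Calls near the threshold gave way when 1 library was left out: Gigyf2 near Ecel1 (-0.18) had a limma adjusted p of 0.0530 without uninjured IPA replicate 1, and Tmigd1 near Slc6a4 (0.36) one of up to 0.196 without the same library, losing its call in 7 of the 12 fits that each left out 1 library.

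Below the filter, 3 neighbours picked out after their values were seen had reads almost only after crush. Prss56, a serine protease gene 26.79 kb from Ecel1, had 34, 41 and 26 reads in crushed IPA libraries against 1, 0 and 0 in uninjured IPA libraries, a ratio of 99.8 with an exact counting interval of 17.5 to 3982.1. In PBS mice it had 10, 24 and 32 reads after crush and 0 in all 3 uninjured libraries, at least 20.5-fold higher, taking 3 reads over the uninjured group as the floor. Fgf15, 52.09 kb from Fgf3 and a growth factor gene too, had 23, 14 and 7 reads in crushed IPA and 16, 11 and 31 in crushed PBS libraries. It was at 0 in all uninjured libraries, so crushed levels were at least 14.5-fold higher in IPA and at least 18.0-fold higher in PBS mice, on the same floor. AC161763.1, an antisense gene that overlaps Fgf15, had 14, 7 and 6 reads in crushed IPA libraries against 0 in all uninjured IPA libraries, and 7, 10 and 16 in crushed PBS against 0, 0 and 1 in uninjured PBS libraries. How strand was counted is not stated, so reads of these overlapping genes cannot be told apart. With no filter on low values, the limma adjusted p of crush in IPA mice was 2.21e-05 for Prss56, 0.00303 for Fgf15 and 0.000635 for AC161763.1. The 3 genes were picked by these same values, so the p describe them and do not test the change.

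**Figure D3:**
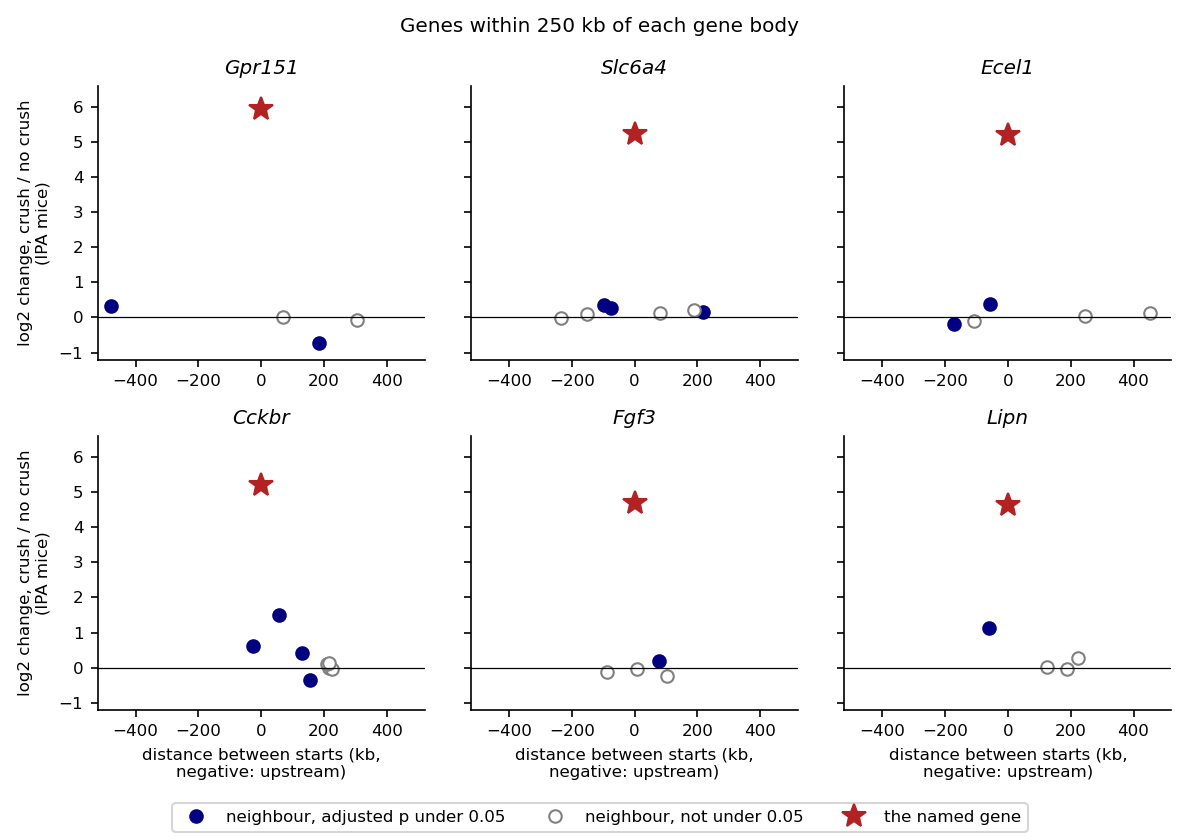
Log2 change of crush over no crush in IPA mice for each of the 6 genes (star) and the tested genes within 250 kb of its body (circles), by distance between starts in kb along the strand of the named gene. Filled circles have a limma adjusted p under 0.05; the highest neighbour is Prkcdbp near Cckbr at 1.49.

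Among genes past the filter, profiles over the 12 libraries most like those of the 6 were found by the root-mean-square difference of centred log2(value + 0.5) values, given here as a description. With the 6 themselves left aside, Gpr151 was nearest to Npy, a neuropeptide known from injured sensory neurons (0.247), and Atf3 (0.340). Slc6a4 (0.140) and Cckbr (0.208) were nearest to Atf3, and Ecel1 (0.228) and Fgf3 (0.174) to Gal, the neuropeptide galanin. Lipn was nearest to Lmo7, a LIM domain protein gene (0.237), with Gal at 0.251. Among themselves, Slc6a4 and Cckbr were closest at 0.110 and Ecel1 and Cckbr next at 0.117, while Gpr151 and Lipn were farthest apart at 0.665. All of these profiles share libraries, and the measure follows mainly the size of the crush change.

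The table held 16 genes with a mean under 2 in uninjured PBS and over 10 in crushed PBS libraries, the 6 among them. The other 10 include Sprr1a, at 642.5 in crushed PBS and 1.82 in uninjured PBS libraries, and Npy, at 70.3 after crush and 0.383 without. They also include Tmem88b (20.8 after crush and 0.597 without) and Rin1, a Ras effector (17.0 after crush and 1.03 without). Timp1 lay just inside the limit of 10 (10.1) and Anxa10 just outside (9.64). The lowest of the 6, Lipn, averaged 15.1 ± 1.44.

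Pathway partners and family relatives of the 6 genes were taken from 9 lists. Over these lists, limma calls after crush in IPA mice ran in both directions in all but the cholecystokinin list, and except for Gal no named gene of a list came near the size of its member. For the counts in IPA mice below, the shares of all genes called were 21.2% higher and 22.5% lower. For those in PBS mice they were 23.6% higher and 24.4% lower. Liph, Mmel1 and Fgf23 averaged under 0.5 in both uninjured groups and passed the filter only through crushed libraries. Their rises therefore carry no weight in these counts. The median log2 change of all genes tested was -0.02 in IPA mice and 0.00 in PBS mice.

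In the galanin list, 1 of 5 tested genes rose and 2 fell in IPA mice (median -0.03), and 1 rose and 1 fell in PBS mice (median 0.15). Gal averaged 389.8 ± 36.6 in crushed IPA and 11.0 ± 0.505 in uninjured IPA libraries, an increase of 5.08 ± 0.10 on the log2 scale (limma adjusted p = 2.04e-13). Its receptor gene Galr1 fell by 0.67 ± 0.08, and Galr2 was at 1.18 in crushed IPA and 1.22 in uninjured IPA libraries (limma adjusted p = 0.817). Kiss1r, a related receptor, fell by 0.34 ± 0.11, a call lost without crushed IPA replicate 3 (limma adjusted p = 0.0729) or uninjured IPA replicate 2 or 3 (0.0661 each).

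Serotonin receptor genes mostly fell: of 12 tested, 9 were lower and 1 higher after crush in IPA mice (median -0.51), and 9 were lower and 0 higher in PBS mice (median -0.55). Htr3a, a subunit of the serotonin-gated ion channel, fell by 1.03 ± 0.08, and Htr3b, another subunit, by 1.06 ± 0.08. Htr3a averaged 71.1 ± 8.44 in crushed IPA and 144.8 ± 3.50 in uninjured IPA libraries. Htr7 fell by 1.01 ± 0.09 and Htr1d by 0.71 ± 0.05, both G protein-coupled receptors. The limma adjusted p of these 4 genes was 5.33e-07 or less. The single rise, that of Htr1f (0.46 ± 0.14), was lost without crushed IPA replicate 2 or uninjured IPA replicate 1 or 2.

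Among 9 tested genes that make, store, break down or carry serotonin and other monoamines, 2 rose and 2 fell (median -0.04). Tph2, which makes serotonin in neurons, was at 1.32 ± 0.186 in crushed IPA and 1.23 ± 0.207 in uninjured IPA libraries (limma adjusted p = 0.703). Slc18a2, the vesicular monoamine transporter, was at 5.67 ± 0.173 in crushed IPA and 5.81 ± 0.356 in uninjured IPA libraries (limma adjusted p = 0.788). Tph1, the synthetic enzyme outside the brain, was below the filter, at 0.679 in crushed IPA and 0.181 in uninjured IPA libraries. The 4 calls were small (Slc29a4 0.23, Maoa 0.20, Slc18a1 -0.27, Slc22a2 -0.35). Leaving out any single IPA library, crushed or uninjured, left at most 1 higher and 1 lower. The largest limma adjusted p were then 0.0967 for Slc29a4 and 0.126 for Slc22a2 (both without crushed IPA replicate 1), 0.174 for Maoa (without crushed IPA replicate 3) and 0.0808 for Slc18a1 (without uninjured IPA replicate 3). Maoa was also above 0.05 without any 1 of the uninjured PBS libraries.

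Of 12 other transporters of the SLC6 family, 2 rose and 3 fell in IPA mice (median -0.24). In PBS mice 3 rose and 3 fell, and the median had the other sign (0.12). Slc6a19, a neutral amino acid transporter known from kidney and gut, averaged 56.2 ± 3.32 in crushed IPA and 18.0 ± 0.417 in uninjured IPA libraries, an increase of 1.61 ± 0.07 (limma adjusted p = 6.06e-10). The taurine transporter Slc6a6 rose by 0.56 ± 0.08, whereas the proline transporter Slc6a7 fell by 1.05 ± 0.15, the GABA transporter Slc6a11 by 0.66 ± 0.12 and Slc6a17 by 0.51 ± 0.04. Slc6a2, the noradrenaline transporter, was below the filter.

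Around Ecel1, 1 of 8 tested M13 metalloprotease and endothelin genes rose and 3 fell (median -0.07). Mmel1, a neprilysin-like protease, rose by 0.46 ± 0.12 at a low level (0.560 in crushed IPA and 0.266 in uninjured IPA libraries). Mme (neprilysin) fell by 0.52 ± 0.12, Ece2 by 0.28 ± 0.04 and the endothelin receptor Ednra by 0.68 ± 0.12. Ece1, which processes endothelin, averaged 89.2 ± 4.86 in crushed IPA and 87.1 ± 2.84 in uninjured IPA libraries (limma adjusted p = 0.692).

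Cckar, the other receptor for cholecystokinin, was the single tested gene of its list and rose by 1.33 ± 0.05 (limma adjusted p = 5.47e-11), with 63.4 ± 2.70 in crushed IPA and 24.9 ± 0.241 in uninjured IPA libraries. The level of Cckbr after crush, 31.2 ± 0.213, was below that of Cckar on this scale, which is not divided by length. The peptide gene Cck was under the filter, at 0.514 ± 0.142 in crushed IPA and 0.235 ± 0.0225 in uninjured IPA libraries.

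Of 13 tested fibroblast growth factor genes, 2 rose and 6 fell (median -0.17). Fgf1 fell by 0.50 ± 0.05, Fgf9 by 0.79 ± 0.06 and Fgf12 by 0.63 ± 0.09, while Fgf11 rose by 0.71 ± 0.08. Fgf11 and Fgf12 belong to the intracellular members of the family. The other rise was that of Fgf23, a hormone gene of bone, with 0.747 ± 0.0849 in crushed IPA and 0.141 ± 0.0408 in uninjured IPA libraries. Fgf7, a secreted relative, was at 4.79 ± 0.818 in crushed IPA and 4.67 ± 0.101 in uninjured IPA libraries, and Fgf10 was below the filter. Of 7 receptors and co-receptors 1 rose and 3 fell (median -0.23): Fgfr1 by 0.42 ± 0.06, Fgfr3 by 0.62 ± 0.16 and the co-receptor Kl by 0.84 ± 0.13. In PBS mice Fgfr3 averaged 1.66 ± 0.440 after crush and 1.56 ± 0.171 without (limma adjusted p = 0.819), and the difference between the crush changes under IPA and PBS was -0.67 (limma unadjusted p = 0.00918, adjusted p = 1.000). Fgfr2 averaged 2.30 ± 0.136 in crushed IPA and 2.81 ± 0.505 in uninjured IPA libraries (limma adjusted p = 0.149). The rise, that of Fgfrl1 (0.38 ± 0.13), was lost without crushed IPA replicate 1 or 2 or uninjured IPA replicate 1 or 3, with limma adjusted p of 0.0516 to 0.147.

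Lipases were the list with the most rises: 4 of 9 tested rose and 2 fell in IPA mice (median 0.17), and 5 rose and 1 fell in PBS mice. Both counts of rises include Liph, which passed the filter only through crushed libraries. Liph, a phospholipase gene, rose by 2.10 ± 0.11 and averaged 3.38 ± 0.172 in crushed IPA and 0.409 ± 0.127 in uninjured IPA libraries. Besides Lipk, Lipe (hormone-sensitive lipase) rose by 0.89 ± 0.12 and Lipo1 by 0.61 ± 0.11. Lipa, the lysosomal acid lipase, was at 69.1 ± 2.73 in crushed IPA and 76.7 ± 0.522 in uninjured IPA libraries, a decrease of 0.15 on the log2 scale that 7 of the 12 fits with 1 library left out did not call (limma adjusted p up to 0.134, without crushed IPA replicate 1). The other decrease was that of Mgll, monoacylglycerol lipase (0.23 ± 0.07 lower on the log2 scale). Lipm, an epidermal relative of Lipn, was near 0 in all groups (0.0121 in crushed IPA and 0.00474 in uninjured IPA libraries).

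**Figure D4:**
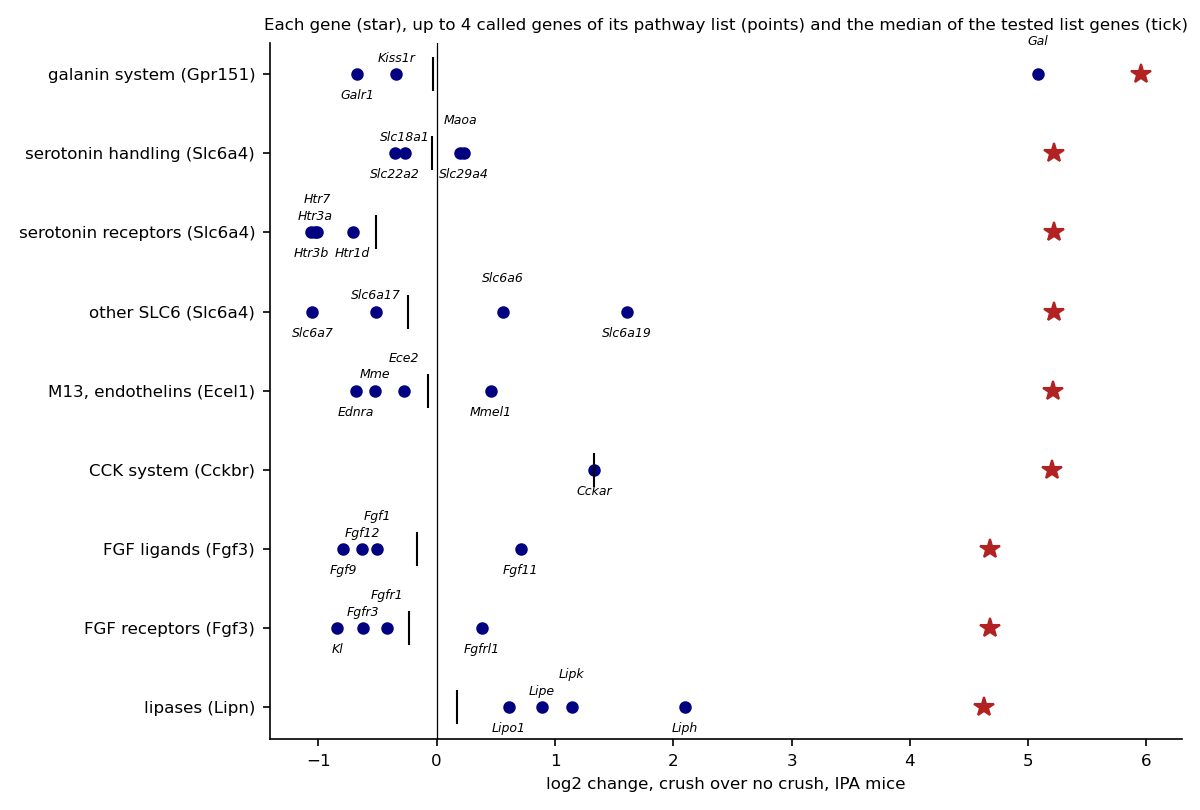
Log2 change of crush over no crush in IPA mice for each of the 6 genes (star) and, in 9 pathway lists, the up to 4 called genes with the smallest p (points), with the median of the tested list genes as a tick. Gal (5.08) is the 1 point near its star. The serotonin receptor points shown all lie below 0, and the called rise of Htr1f (0.46) is not among them.

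Markers of other cell types moved with crush as well. Of 8 macrophage markers, 7 rose in IPA mice and 8 in PBS mice; their sum was 106.1 to 129.6 in crushed IPA, 116.5 to 124.4 in crushed PBS, 32.8 to 45.6 in uninjured IPA and 33.5 to 41.8 in uninjured PBS libraries. For platelets, which take up serotonin through the Slc6a4 product, 3 of 5 tested markers of 8 rose in IPA mice (Pf4, Gp1bb and Itga2b). With 1 library left out, 2 to 3 rose in IPA mice, and in PBS mice 2 of the 5 rose. The platelet list summed to 29.2 to 31.9 in crushed IPA, 21.9 to 29.7 in crushed PBS, 14.3 to 16.7 in uninjured IPA and 11.2 to 16.3 in uninjured PBS libraries. Keratinocyte markers, which include Lipk, summed to 8.47 to 8.98 in crushed IPA and 5.04 to 6.35 in uninjured IPA libraries, with Lipk rising of 4 tested and Flg and Casp14 at 0 in every library. Mast cell markers summed to 63.7 to 68.5 in crushed IPA and 77.2 to 79.0 in uninjured IPA libraries (of 6 tested, Hdc rose and Kit fell). Most of that sum was Kit, at 58.5 ± 2.41 in crushed IPA and 72.1 ± 1.70 in uninjured IPA libraries. Markers of central serotonergic neurons summed to 10.2 to 11.1 in crushed IPA and 8.67 to 9.81 in uninjured IPA libraries (En1 rose, of 4 tested). En1 passed the filter only through crushed libraries, so its rise carries no weight as a count. Those of motor neurons summed to 113.6 to 154.0 in crushed IPA and 192.6 to 197.8 in uninjured IPA libraries. Most of that sum was Isl2, at 133.9 ± 20.9 in crushed IPA and 192.4 ± 2.83 in uninjured IPA libraries. Slc5a7 rose and Isl2 fell, of 2 tested, and the rise was lost without crushed IPA replicate 2. Muscle markers ranged from 41.7 to 247.9 in crushed IPA and from 31.3 to 76.3 in uninjured IPA libraries, with 0 of 7 called, but 5 of 7 without crushed IPA replicate 3. Of 13 DRG neuron markers 2 (Tubb3 and Uchl1) rose and 8 fell, of 8 satellite glia markers 2 rose and 2 fell (1 to 3 fell with 1 library left out), and of 7 Schwann cell markers 0 were called. The part of these cells in the levels of the 6 genes was not tested.

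IPA was set against PBS within each injury state. The PBS libraries that chose the genes are the comparison group here, so these values are not free of that choice. After crush each of the 6 genes had a lower mean with IPA than with PBS, as did 51.2% of all genes, and limma called none of the 6. Gpr151 averaged 103.1 ± 8.20 in crushed IPA and 115.1 ± 0.711 in crushed PBS libraries, a log2 difference of -0.16 with a 95% interval of -0.39 to 0.07 (limma adjusted p = 0.694). It was the 1 gene of the 6 in which the groups did not overlap, which 5.58% of all genes showed in this direction. By edgeR its unadjusted p was 0.0481 and its adjusted p 0.632.

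For the other genes the log2 difference after crush was -0.09 for Slc6a4 (-0.35 to 0.18), -0.01 for Ecel1 (-0.37 to 0.36), -0.02 for Cckbr (-0.37 to 0.33), -0.11 for Fgf3 (-0.37 to 0.14) and -0.13 for Lipn (-0.34 to 0.08). Slc6a4 averaged 29.2 ± 2.06 in crushed IPA and 31.1 ± 2.17 in crushed PBS libraries, and Ecel1 75.4 ± 3.40 in crushed IPA and 76.3 ± 12.3 in crushed PBS libraries. Lipn averaged 13.7 ± 0.121 in crushed IPA and 15.1 ± 1.44 in crushed PBS libraries, where the spread was wider. The intervals leave room for differences up to 0.39 on the log2 scale, and a p that misses the threshold does not show equal levels. Without crushed PBS replicate 1, the library farthest from its mates, the difference was -0.17 for Gpr151 (limma adjusted p = 0.919) and -0.15 for Ecel1 (limma adjusted p = 0.947).

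Without crush all 6 genes had a higher mean with IPA than with PBS, where 47.3% of all genes had a lower one, and again none was called. The log2 differences were 0.03 for Gpr151, 0.08 for Slc6a4, 0.10 for Ecel1, 0.03 for Cckbr, 0.07 for Fgf3 and 0.10 for Lipn, with limma adjusted p of 0.618 to 0.935. The groups overlapped in all 6, where 12.5% of all genes had IPA libraries wholly below PBS libraries and 12.7% wholly above. Lipn averaged 0.0767 ± 0.0488 in uninjured IPA and 0.0372 ± 0.0335 in uninjured PBS libraries, or 15 and 6 reads in all.

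The crush change under IPA minus that under PBS was below 0 for all 6 genes, at -0.19 for Gpr151, -0.16 for Slc6a4, -0.11 for Ecel1, -0.05 for Cckbr, -0.18 for Fgf3 and -0.23 for Lipn, with a limma adjusted p of 1.000 for each. For Lipn the size depended on the scale: edgeR on recovered reads, with no added 0.5, gave -1.14 for this difference (adjusted p = 1.000) and 1.00 for IPA without crush (adjusted p = 0.453). The interval for Gpr151 ran from -0.52 to 0.14 and that for Lipn from -0.53 to 0.07. Over all genes tested, the median difference between the crush changes was -0.01, and the share of genes below 0 was not counted. Selection on the PBS crush contrast bears on the differences of the 6 genes, and crushed IPA mice had 3 more days of IPA than uninjured IPA mice. Over all 15603 genes limma called 0 in each of the 3 comparisons that involve IPA, and edgeR 0 as well. At an unadjusted p under 0.05 there were 1258 genes after crush, 1902 without crush and 327 for the difference, and DESeq2 called 15 genes after crush, 3 without crush and 3 for the difference, none of them among the 6. No gene of the 9 pathway lists was called in any of the 3.

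**Figure D5:**
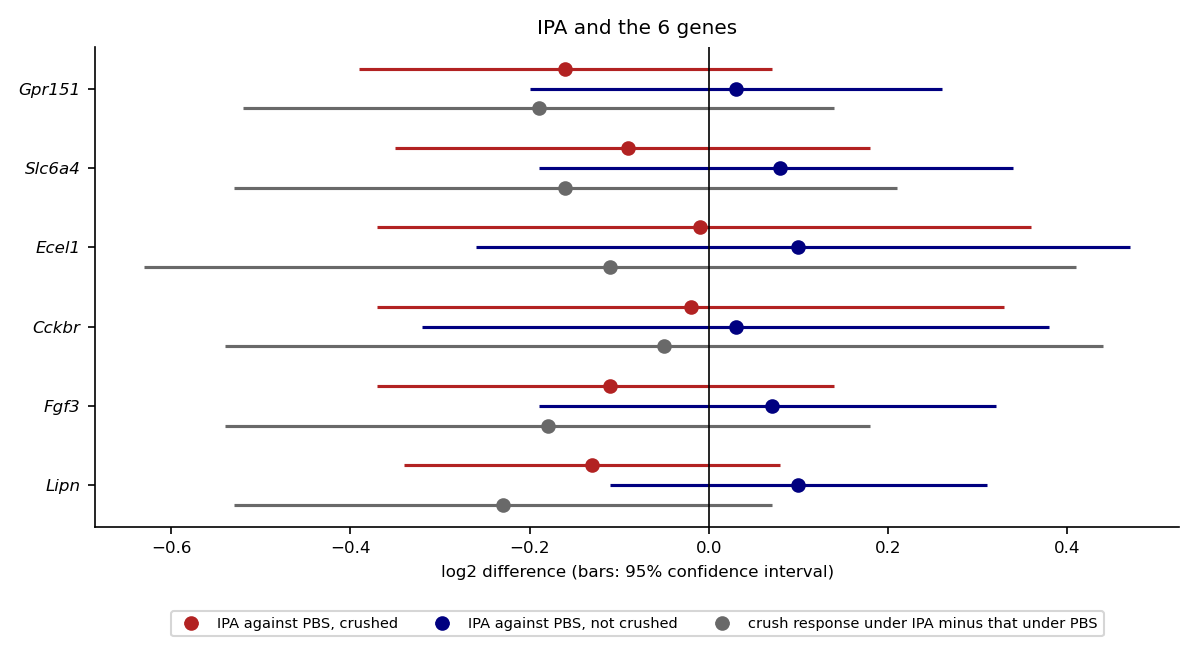
Log2 difference between IPA and PBS after crush (red) and without crush (blue), and the crush change under IPA minus that under PBS (grey), for each gene, with 95% confidence intervals from limma. Every interval includes 0; the widest, for Ecel1, runs from -0.63 to 0.41 in grey.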

How the data were processed

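The 12 libraries came from poly(A) RNA (integrity number over 8.0), sequenced after directional preparation with paired 75 base reads (HiSeq4000), per the labels' protocols. Tools in the submitters' processing notes, whose roles are not stated, are FastQC 0.10.1, STAR 2.7.0, R 3.5.0, limma 3.38.3 and edgeR 3.24.3, with the build mm10. How reads were counted, and on which annotation, is not given in the sources used here. Values were deposited as 1 table named FPKM, whose values behave as CPM: in each library 100.0% were whole multiples of 1 step (tolerance 1e-06), so reads were recovered. The columns sum to between 803444 and 818767.

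The 6 genes, the gene lists and the tests were chosen with earlier results of these data known. A limma-trend model (limma 3.58.1, R 4.3.3) over all 12 libraries, with 8 residual degrees of freedom, was fitted on log2(value + 0.5), for genes with at least 0.5 in at least 3 libraries. The call was an adjusted p under 0.05 (Benjamini-Hochberg, 15603 genes). The design foresaw FPKM, and its test was kept. edgeR 4.0.16 (quasi-likelihood) and DESeq2 1.42.0 were run on recovered reads. The limma and edgeR fits were tested on simulated data, with the outcome not given here. No such test of the DESeq2 fit is reported. Coordinates, exons and lengths are from GENCODE M21 (mm10). Older symbols were matched through Ensembl IDs; Lipo1 names the entry as the table does. Galr3, Lipo3 and Loricrin were not matched.

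Genes named were the 6; the 3 most alike to each; up to 4 called genes per pathway list with the smallest p, with fixed relatives; the 2 called neighbours of smallest p per gene; injury markers; and the first genes of the same class, 1 of which is not reported here. Htr1f, Slc6a11, Fgf23, Mgll, Fgf4, Prss56, Fgf15, Timp1, Anxa10, AC161763.1, Gm12343, Gm23334 and the marker genes given by name were named after their values were seen. Per the labels, each replicate is its own pool of mice. Same-numbered libraries did not deviate together (correlations of -0.25 to 0.21 between groups), so the numbers were not taken as pairs. Alternatives were other pseudocounts (0.1 and 1), filters, scalings, a replicate block, only the libraries compared, both count tools, and each library left out in turn.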

Additional observations from a re-analysis of the deposited data

How the results depend on the processing

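Under all 22 alternatives the 6 genes rose after crush in IPA mice, and none was called for IPA after crush or without it; nor was any for the difference of crush changes under the 21 alternatives that fit it. With the replicate number as a block, 6 of 6 genes were called for crush in IPA mice and 0 for IPA after crush. Without the block, 21.2% of all genes were called higher and 22.5% lower for crush in IPA mice. The count of 6 carries no weight of its own, since Slc6a4, Cckbr, Fgf3 and Lipn passed the filter only through crushed libraries. The block also ended the calls of Maoa (limma adjusted p = 0.0624), Lipa (0.0635) and Tmigd1 (0.0597). DESeq2 called 15 genes for IPA after crush, 3 for IPA without crush and 3 for the difference of crush changes, where limma called 0; leaving out 1 library gave 0 to 1 for IPA after crush. The cause was not tested. Small differences changed sign. With 1 library left out, IPA after crush ran from -0.15 to 0.07 for Ecel1 and -0.10 to 0.04 for Cckbr. IPA without crush ran from -0.10 to 0.15 for Gpr151 (0.00 by DESeq2), -0.03 to 0.19 for Slc6a4, -0.05 to 0.32 for Ecel1, -0.13 to 0.21 for Cckbr and -0.01 to 0.20 for Fgf3. The difference of crush changes ran from -0.33 to 0.05 for Ecel1 and -0.23 to 0.11 for Cckbr. Crush in IPA mice ran from -0.05 to 0.01 for Galr2, -0.02 to 0.15 for Tph2, -0.06 to 0.02 for Slc18a2, 0.00 to 0.08 for Ece1 and -0.10 to 0.13 for Fgf7. Crush in PBS mice ran from -0.09 to 0.21 for Fgfr3 (-0.05 with quantile normalization) and -0.09 to 0.08 for Fgfr2 (-0.04 with quantile normalization, 0.00 by DESeq2). Levels before injury rest on 1 to 130 reads per library, which limits every fold, that of Lipn most.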
